A study of Mus musculus with 6 samples.

Results

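The heat shock and cytosolic chaperone genes were examined in LSK cells (Lin-Sca+Kit+, the bone marrow fraction that holds hematopoietic stem cells and multipotent progenitors) that lacked Oga, the enzyme that removes O-GlcNAc from proteins. The set was defined by gene symbol as 39 genes, and a locus was found for all 39 among the 53445 loci of the table. For 6 symbols listed at more than 1 locus the longest locus was taken. Poly(A) RNA-Seq had been done on female mice of about 12 weeks, 3 of them OgaVav-Cre and 3 wildtype, on the C57BL/6 background, with at least 20000 sorted cells per mouse. OgaVav-Cre mice carried the floxed Oga alleles (Oga fl/fl) together with the Vav-iCre transgene, which is active throughout the blood lineage from fetal life and not in LSK cells alone. For the wildtype mice the labels give no allele of Oga or Cre, and they are described here as wildtype only. Each library stands for 1 mouse.

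Chaperones keep other proteins folded. HSP70 binds unfolded stretches, is loaded by J-domain proteins and is emptied by nucleotide exchange factors such as the BAG and HSP110 proteins. HSP90 finishes the folding of kinases and steroid receptors with a set of co-chaperones, and the TRiC/CCT ring encloses actin and tubulin. Under protein stress the factor HSF1 trimerizes, binds repeated GAA units of alternating direction (heat shock elements) and induces Hspa1a, Hspa1b, Hspb1, Dnajb1, Hsph1, Bag3 and Hsp90aa1, whereas Hspa8, Hsp90ab1 and CCT are made at all times. Hematopoietic stem cells are known to make protein slowly and to tolerate misfolded protein poorly.

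Counts per library summed to between 19318056 and 27064389. Oga, listed under its older symbol Mgea5, was counted 104, 109 and 110 times in the OgaVav-Cre libraries against 3164, 2970 and 2736 times in wildtype, so its mean CPM (counts scaled to library size with edgeR's TMM factors) was 3.09% of wildtype. Of 10 LSK marker genes none was at 0, and their summed level was 1148 to 2362 CPM in OgaVav-Cre and 1487 to 2571 in wildtype. OgaVav-Cre replicate 3 stood apart with the lowest sum for LSK markers (1148 CPM) and the highest for 13 lineage markers, 998 CPM against 275 to 625 in the other libraries, among them Cd4, Cd8a and Ms4a1. Sums of 9 plasma cell markers overlapped between the genotypes (11913 to 111632 CPM in OgaVav-Cre, 12773 to 55581 in wildtype), and 3 immunoglobulin loci took 1.17 to 9.88% of all counts. The part of these other cells in the values below was not tested. In bulk samples a smaller share of cells of a type and less RNA per cell cannot be told apart.

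The heat shock elements are shown first, with Hspa1b for the short form of the letters, as the gene of the largest fold change, and Dnajb6, Hspd1, Hspe1 and Hsph1 as the genes with the longer form. RefSeq promoter windows on GRCm38.p6 (250 bases before to 50 after each start) were matched for 33 of the 39 genes, and not for Cct4, Hsf1, Hsp90aa1, Hsp90ab1, Hspa8 and Hspa9. Capitals mark the matching letters. Sequences run 5′ to 3′ along the gene, from chr17:34959239-34959488 (minus strand) for Hspa1b, chr5:29735844-29735873 (plus) for Dnajb6, chr1:55088053-55088082 for Hspd1 (minus) and Hspe1 (plus), and chr5:149636279-149636308 (minus) for Hsph1.
Hspa1b: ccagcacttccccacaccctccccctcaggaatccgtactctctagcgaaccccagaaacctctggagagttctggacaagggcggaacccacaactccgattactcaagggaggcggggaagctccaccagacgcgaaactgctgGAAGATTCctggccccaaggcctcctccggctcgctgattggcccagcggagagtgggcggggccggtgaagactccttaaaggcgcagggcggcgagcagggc
Dnajb6: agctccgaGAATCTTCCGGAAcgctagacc
Hspd1: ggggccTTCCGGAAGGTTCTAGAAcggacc
Hspe1: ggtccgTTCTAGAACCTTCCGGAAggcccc
Hsph1: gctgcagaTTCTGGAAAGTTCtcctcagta
Hspa1b held the short form GAANNTTC from base -104 to base -97 before its start, and the same 250 bases upstream of Hspa1a differed from it at 3 positions (98.8% identical). Hspd1 and Hspe1, the mitochondrial chaperonin and its lid, are transcribed away from each other, so their 30 bases are the same stretch read on opposite strands. In Hsph1 the letters lay past the annotated start, at bases 15 to 27.

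On either strand the longer form GAANNTTCNNGAA occurred in the windows of 4 of the 33 genes, namely Dnajb6, Hspd1, Hspe1 and Hsph1. This was 12.1%, against 0.669% of all 26742 genes with such a window. Hspd1 and Hspe1 share the same stretch, so these 4 genes do not stand for 4 separate sites. GAANNTTC alone, which the longer form contains, was found in 11 of 33 (33.3%, against 9.08% of all genes). TTCNNGAA, also contained in it, was found in 6 of 33 (18.2%, against 9.64%), and CCAAT in 17 of 33 (51.5%, against 41.0%). These are matches of letters in the windows and say nothing of binding in LSK cells. The set was put together as heat shock and chaperone genes, so shares above those of all genes are no independent result.

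None of the chaperone genes was called changed between the genotypes. To be called, a gene had to pass 0.05 in the adjusted p of edgeR's quasi-likelihood test and differ by more than 1 on the log2 scale. Of the 39 genes 37 had enough reads to be tested, 0 of 37 were called, and over all 22032 loci tested 7 were called (0.0318%), 1 of them higher (0.00454%) and 6 lower (0.0272%). The smallest adjusted p among the 37 was 0.396, for Hsf2. At an unadjusted p below 0.05 in edgeR there were 6 of 37 genes (10.6% of all loci). Of these, 2 were higher in OgaVav-Cre, Hspa9 and Fkbp5 (4.38% of loci), and 4 lower, Hsf2, Dnajb4, Hspa4l and Hspa1b (6.27%). DESeq2's Wald test called 0 of 39 genes (0.321% of its loci). At an unadjusted p below 0.05 DESeq2's Wald test had 2 higher and 4 lower genes (3.09 and 3.63% of its loci). The higher genes were again Hspa9 and Fkbp5. The lower genes were not all the same, as Hsph1 passed this cutoff in DESeq2 only and Hspa4l in edgeR only. The genotypes did not overlap for 6 of 37 genes (17.5% of loci), of which Hspa9, Fkbp5 and Dnaja2 were higher (7.5%) and Hsf2, Hspa4l and Dnajb4 lower (9.97%). As 6 of 37 is 16.2%, the set lay within a few genes of the background on each of these measures.

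The direction of the fold changes leaned to higher values. A positive log2 fold change was found for 27 of 37 genes (50.5% of all loci), with a median of 0.19 against 0.00 for all loci and 0.09 for the 2018 loci of at least 100 CPM. The quartiles were -0.10 and 0.26 for the 37 genes and -0.07 and 0.26 for those 2018 loci. The share of positive fold changes among loci of that level was not counted. Scaling by library totals alone, which lowers the median of all loci to -0.11, left 22 of 37 positive. The median standard error of a log2 fold change was 0.17 among these genes, so most of the single values lie within 2 standard errors of 0. The size of this lean depended on the library left out, with a median from 0.12 to 0.33 and 25 to 29 genes positive. It was largest without wildtype replicate 1, as described next.

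**Figure D1:**
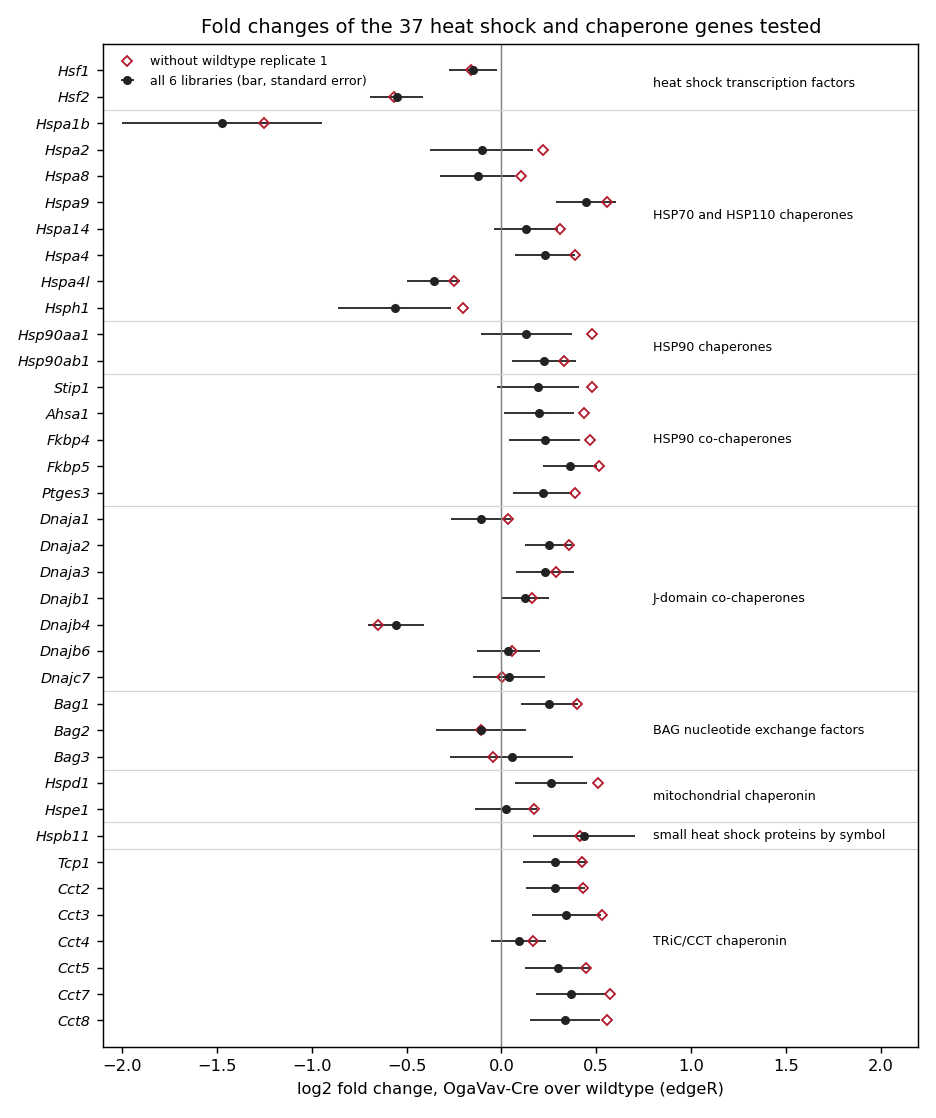
Log2 fold change of OgaVav-Cre over wildtype on the x axis for the 37 genes tested, grouped by role. Filled points with bars give the edgeR estimate and its standard error from all 6 libraries, and open diamonds the estimate without wildtype replicate 1. Most CCT subunits and HSP90 co-chaperones move further to the right in the second fit, whereas Hsf2 and Dnajb4 stay left of 0 in both.

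Wildtype replicate 1 was the highest wildtype library for 26 of the 37 genes, against 34.4% of all loci. Among genes of at least 100 CPM it was the highest for 17 of 18 (47.4% of such loci). The median of the 37 genes, relative to each gene's wildtype mean on a log2 scale, was 0.27 in wildtype replicate 1 and -0.09 and -0.16 in replicates 2 and 3. In the OgaVav-Cre libraries it was 0.21, 0.26 and 0.13. Wildtype replicate 1 thus stood at the level of the OgaVav-Cre libraries, and the spread between wildtype mice was as large as the difference between genotypes. This library was singled out for its high values of these same genes. Leaving it out therefore raises their fold changes by construction, and the shares of all loci are no even comparison. Left without this library, 17 genes were higher and 2 lower at an unadjusted p below 0.05 in edgeR (7.4 and 7.13% of loci). A positive fold change was then found for 29 of 37 (50.4% of loci), and the median was 0.33. The genotypes then did not overlap for 22 of 37 genes (35.4% of loci), 19 of them higher (17.3%) and 3 lower (18.1%). The smallest adjusted p was 0.211 for Fkbp5, so 0 genes were called there either. Leaving out another library gave other counts at the same unadjusted cutoff, set here beside the shares of all loci. They were 0 higher and 2 lower without OgaVav-Cre replicate 1 (2.43 and 4.08% of loci), 1 and 4 without OgaVav-Cre replicate 2 (3.2 and 4.47%) and 1 and 4 without OgaVav-Cre replicate 3 (6.2 and 8.09%). They were 0 and 4 without wildtype replicate 2 (3.62 and 3.89%) and 0 and 3 without wildtype replicate 3 (2.19 and 3.2%). Without OgaVav-Cre replicate 3, the library that stood apart, the genotypes did not overlap for 15 of 38 genes (33.8% of loci), 10 higher (15.8%) and 5 lower (18%).

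**Figure D2:**
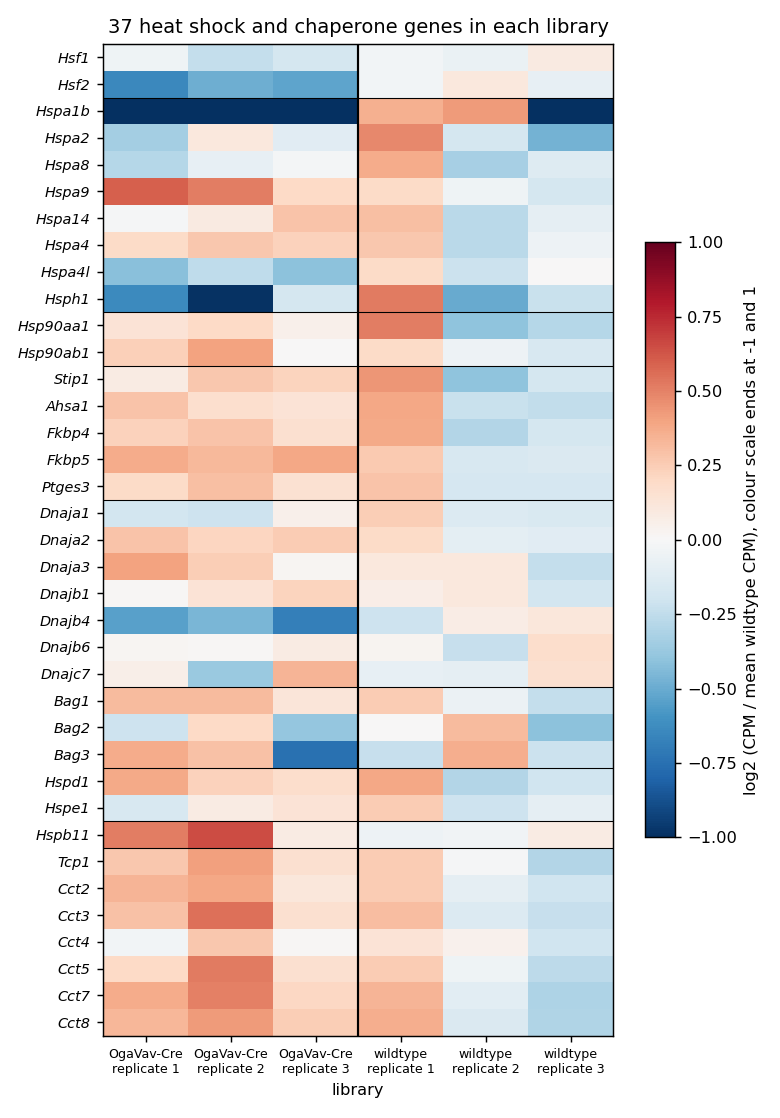
Level of the 37 tested genes (rows, grouped by role with lines between roles) in the 6 libraries (columns), as log2 of CPM over the gene's mean wildtype CPM. The colour scale ends at -1 and 1, so Hspa1b lies beyond it in several libraries. The column of wildtype replicate 1 is red for most HSP90 co-chaperones and CCT subunits, as are the OgaVav-Cre columns.

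Levels per length set the scale of these genes. In deposited RPKM (reads scaled to length and library) Hsp90ab1, the constitutive cytosolic HSP90, was the highest at 601 ± 84.9 in OgaVav-Cre and 539 ± 68.8 in wildtype (SD, n = 3 each). Its lowest library was at 493 RPKM, and the highest value of any other gene of the set was 97.8 RPKM, for Cct5 in OgaVav-Cre replicate 2. This order holds for the longest locus of each symbol, since a second locus listed as Hspa8 was at 198 to 364 RPKM. Cct2 followed with 87.7 ± 7.88 and 75.5 ± 12.8, then Ptges3 with 83.5 ± 6.6 and 75.2 ± 14.7, and these neighbours did not differ beyond their spread. The length used is that of the listed locus, 6238 bases for Tcp1 and 1964 for Cct2. Their longest annotated transcripts have 2446 and 1962 bases, so the order below Hsp90ab1 may not hold per transcript length. Hsp90aa1, the inducible HSP90, was at 44.1 ± 2.87 and 42.3 ± 15.8 RPKM. At the bottom were Hspb1, Hspa1a, Hspa1b and Hspb11, each with means below 1 RPKM in both genotypes. The inducible genes thus spanned most of the range, from a few reads per library for Hspb1 to the level of Hsp90aa1.

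**Figure D3:**
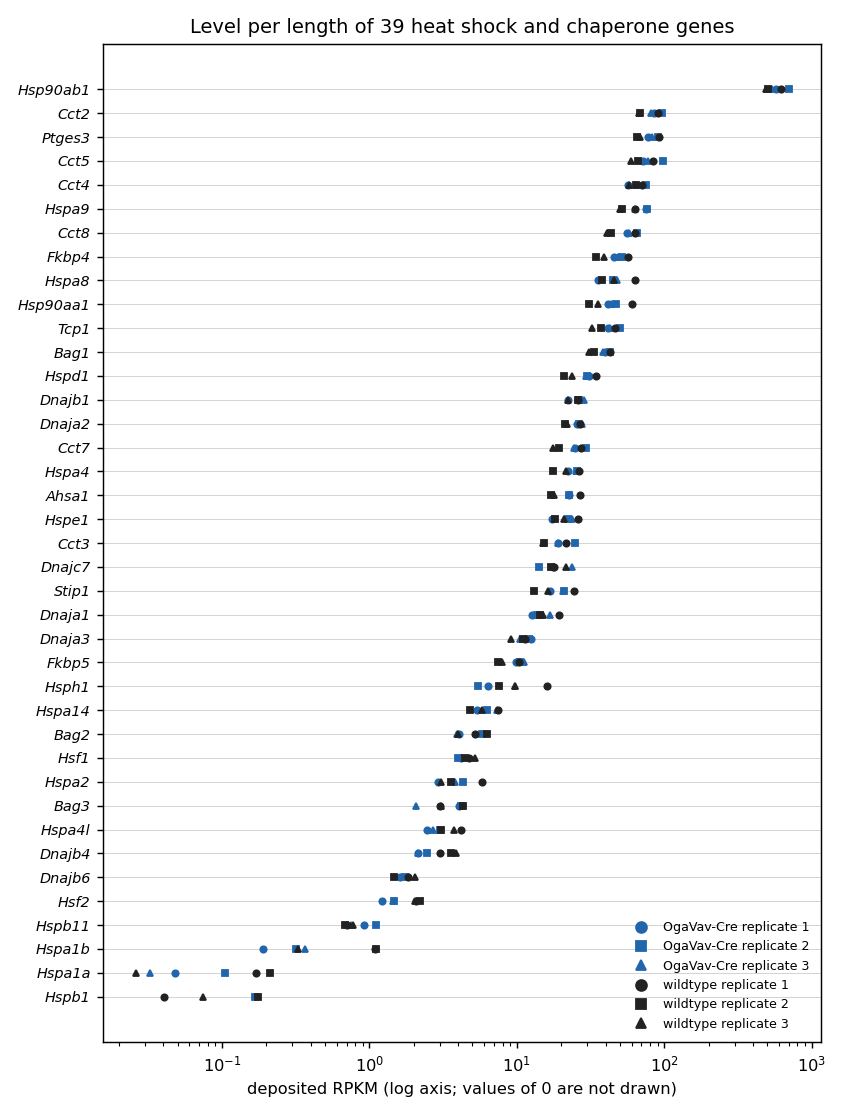
Deposited RPKM on a log x axis for the 39 genes, ordered by their mean over all libraries, with 1 point per library (blue OgaVav-Cre, black wildtype, the marker giving the replicate). With the longest locus taken for each symbol, Hsp90ab1 stands alone at the top, between 493 and 697 RPKM, and Hspa1b, Hspa1a and Hspb1 lie at the bottom. The 2 libraries of Hspb1 at 0 are not drawn.

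Of the heat shock transcription factors, Hsf2, which can pair with HSF1 and is active in development, was lower in OgaVav-Cre in every library. Hsf2 (chr10:57206191-57232949 on mm9, plus strand, 11 exons) was at 14.4, 16.1 and 15.7 CPM in OgaVav-Cre and 22.1, 24.2 and 21.4 in wildtype. Its highest OgaVav-Cre library lay below its lowest wildtype library and the mean was 68.2% of wildtype. The log2 fold change was -0.55 (SE 0.14, 95% interval -0.88 to -0.23) with an adjusted p of 0.396. Fits with any 1 library left out gave -0.59 to -0.49. Hsf1 (chr15:76307852-76332343), the master factor of the heat shock response, was at 32.9, 28.8 and 30.1 CPM in OgaVav-Cre and 33.3, 32.5 and 36.2 in wildtype. Its genotypes overlapped, and its log2 fold change was -0.15 (SE 0.13, interval -0.44 to 0.14, adjusted p = 0.673).

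Hspa1b had the largest fold change of the set and the least even values. Hspa1b (chr17:35093374-35096183 on mm9, minus strand, 1 exon) is a stress-induced HSP70. Its reads numbered 15, 26 and 32 in the OgaVav-Cre libraries against 73, 69 and 24 in the wildtype ones, or 0.67, 1.03 and 1.17 against 3.42, 3.58 and 1.02 CPM. Wildtype replicates 1 and 2 were high, and wildtype replicate 3 lay within the OgaVav-Cre range, so the genotypes overlapped. The log2 fold change was -1.47 (SE 0.53, interval -2.70 to -0.25, adjusted p = 0.432). It was -1.25 without wildtype replicate 1 and between -1.87 and -1.19 over all libraries left out. Hspa1a (chr17:35106144-35109101), its near-identical neighbour, had 4, 9 and 3 reads against 12, 14 and 2 and did not pass the filter on low counts. Here too wildtype replicates 1 and 2 were the high ones. Of the 50-base stretches of the Hspa1b transcript 62.3% occur without a mismatch in the Hspa1a locus, so a read of this length could often not be placed in either gene alone. Reads of the Hspa1b span were also listed at other loci. A second locus named Hspa1a lies inside it and had 15, 26 and 32 against 67, 61 and 24 reads, and 7330403C04Rik on the opposite strand had 12, 23 and 28 against 49, 52 and 23.

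The other HSP70 and HSP110 genes split. Hspa9, the mitochondrial HSP70, was at 303, 287 and 230.9 CPM in OgaVav-Cre and 230.03, 195 and 178 in wildtype. The lowest OgaVav-Cre library, replicate 3, exceeded the highest wildtype library by less than 1 CPM. Its log2 fold change was 0.45 (SE 0.16, interval 0.08 to 0.81, adjusted p = 0.431). Hspa4l (chr3:40548417-40600025), an HSP110 protein best known from testis, was at 36.2, 40.6 and 36.3 CPM in OgaVav-Cre and 55.0, 41.5 and 48.4 in wildtype. These groups too were separated by less than 1 CPM, with a log2 fold change of -0.36 (SE 0.14, adjusted p = 0.447). Hsph1 (chr5:150400873-150438951), the inducible HSP110 and an exchange factor for HSP70, was at 57.2, 44.7 and 78.5 CPM in OgaVav-Cre and 128, 62.6 and 76.3 in wildtype. Wildtype replicate 1 stood far above the rest, and OgaVav-Cre replicate 3 above the remaining wildtype libraries. The log2 fold change was -0.56 (SE 0.30, adjusted p = 0.531) and -0.21 without wildtype replicate 1. Hspa4, another HSP110, was at 243 to 256 CPM in OgaVav-Cre and 177 to 257 in wildtype. Hspa14, which works at the ribosome, was at 58.5 to 71.8 and 48.7 to 72.5 CPM, and Hspa2, the testis form of HSP70, at 9.84 to 13.4 and 8.97 to 17.4 CPM. Of the 8 tested members of this group 3 had positive and 5 negative fold changes, and wildtype replicate 1 was the highest wildtype library for 7 of the 8.

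Hspa8, the constitutive HSP70, cannot be read from 1 locus. The longest locus of that name (chr9:40609067-40613283) was covered by 4188, 5409 and 6140 reads in OgaVav-Cre against 6254, 3470 and 4909 in wildtype. A locus of 1 exon on chr5:5781530-5783636 carries the same symbol and had 11792, 15024 and 17707 against 18279, 9592 and 12602 reads, more than the gene itself in every library. Both loci were highest in wildtype replicate 1 and lowest in wildtype replicate 2. Their log2 fold changes were -0.13 (SE 0.20, adjusted p = 0.835) and -0.10 (SE 0.22, adjusted p = 0.894). Of the 50-base stretches of the Hspa8 transcript 75.7% occur elsewhere in mm9.

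**Figure D4:**
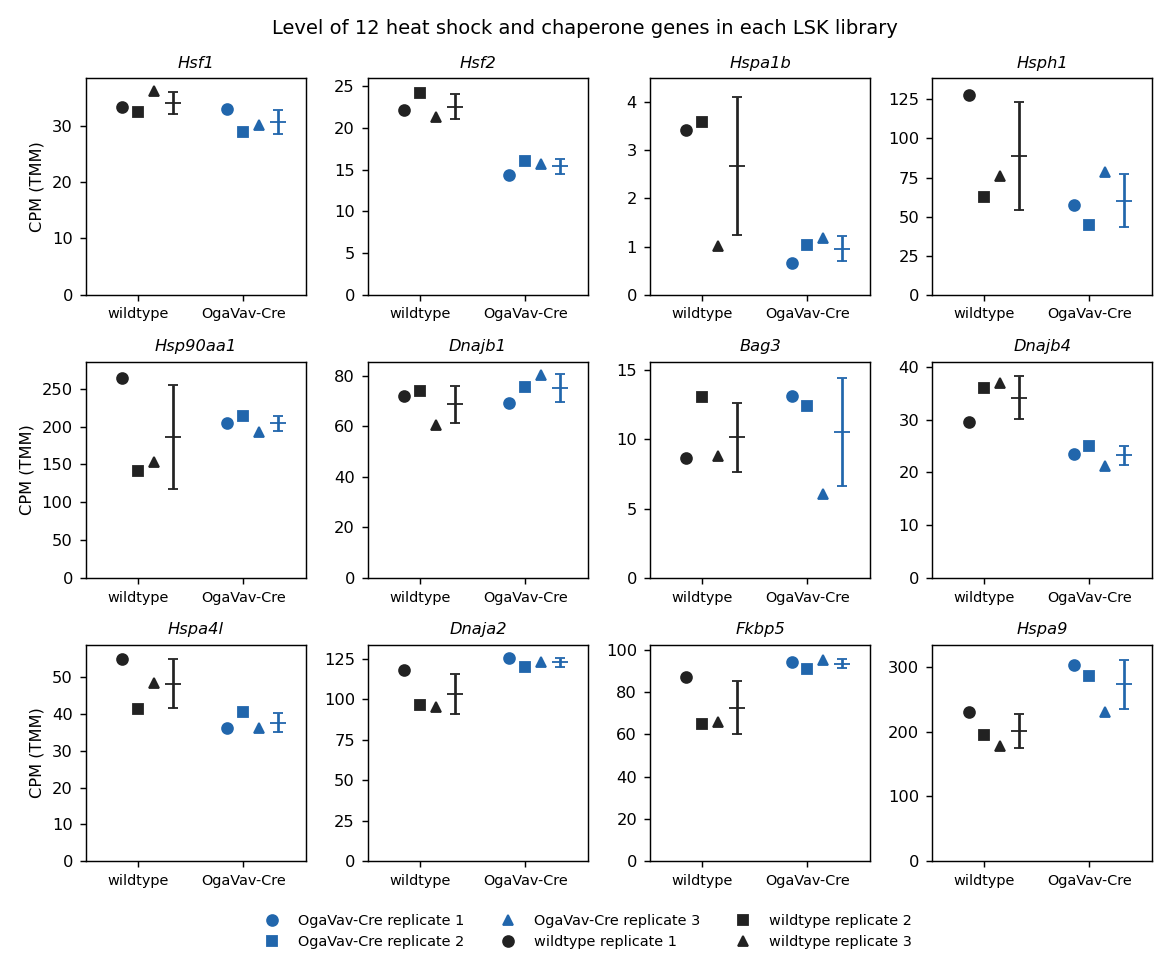
CPM (TMM-scaled, axes from 0) of 12 genes in each library, wildtype in black and OgaVav-Cre in blue, the marker giving the replicate, with mean and SD beside the points. Hsf2 and Dnajb4 are lower in all 3 OgaVav-Cre libraries, between 14.4 and 16.1 and between 21.3 and 24.9 CPM. For Hsph1 and Hsp90aa1 wildtype replicate 1 is the highest of all libraries. In Hsp90aa1 the OgaVav-Cre libraries lie between it and the other wildtype libraries.

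HSP90 and its co-chaperones leaned to higher values in OgaVav-Cre without a call. Hsp90aa1 (chr12:111928815-111940938) was at 205, 214 and 193 CPM in OgaVav-Cre and 265, 141 and 153 in wildtype. The OgaVav-Cre libraries lay between wildtype replicate 1 and the other wildtype libraries. The log2 fold change was 0.13 (SE 0.24, interval -0.42 to 0.69, adjusted p = 0.863) and 0.48 without wildtype replicate 1. Hsp90ab1 was at 2142, 2407 and 1819 CPM against 2074, 1755 and 1623 (log2 fold change 0.22, SE 0.17, adjusted p = 0.643). All 5 co-chaperones had positive fold changes, from 0.19 to 0.36, with adjusted p from 0.446 to 0.758. They were Stip1, which bridges HSP70 and HSP90, Ahsa1, which speeds its ATPase, Ptges3, the p23 protein that closes the clamp, and the immunophilins Fkbp4 and Fkbp5. Wildtype replicate 1 was the highest wildtype library for all 5. Without it, a library singled out for its high values, the median of the 5 was 0.46 in place of 0.22. Fkbp5 (chr17:28534880-28654469), which restrains the glucocorticoid receptor and is itself induced by glucocorticoids, was at 94.1, 90.9 and 95.2 CPM in OgaVav-Cre and 87.2, 64.9 and 65.8 in wildtype. The groups did not overlap (log2 fold change 0.36, SE 0.14, adjusted p = 0.446). In a list of 10 glucocorticoid response genes 3 had positive and 7 negative fold changes, and 0 were below an unadjusted p of 0.05 in edgeR (10.6% of all loci). The 3 with the smallest p were Sult1a1 (-0.61, SE 0.41), Nfkbia (0.28, SE 0.19) and Zbtb16 (-0.34, SE 0.27), and the smallest adjusted p was 0.599.

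Among the J-domain proteins, Dnajb4 was lower in all OgaVav-Cre libraries. Dnajb4 (chr3:151841475-151873266), a cytosolic partner of HSP70, was at 23.5, 24.9 and 21.3 CPM in OgaVav-Cre and 29.5, 36.1 and 36.9 in wildtype. The log2 fold change was -0.56 (SE 0.15, interval -0.90 to -0.22, adjusted p = 0.401), and it lay between -0.65 and -0.49 when each library was left out. Dnaja2 (chr8:88061539-88079267) was at 126, 120 and 123 CPM against 118, 96.6 and 95.3, with groups that did not overlap and a log2 fold change of 0.25 (SE 0.12, interval -0.04 to 0.54, adjusted p = 0.512). Dnajb1 (chr8:86132074-86135802), the HSP40 that HSF1 induces, was at 69.2, 75.5 and 80.2 CPM against 71.8, 73.9 and 60.4. It differed by less than its spread (log2 fold change 0.13, SE 0.12, interval -0.16 to 0.42, adjusted p = 0.725). Dnaja1, Dnaja3 (a mitochondrial protein), Dnajb6 (a suppressor of aggregation) and Dnajc7 had log2 fold changes of -0.11, 0.23, 0.04 and 0.04. Wildtype replicate 1 was the highest wildtype library for only 2 of the 7 genes of this family.

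Of the BAG nucleotide exchange factors, Bag3 (chr7:135667097-135690495), a heat-inducible protein that steers clients to autophagy, was at 13.1, 12.4 and 6.06 CPM in OgaVav-Cre and 8.67, 13.0 and 8.76 in wildtype. OgaVav-Cre replicate 3 was the low library, and the log2 fold change was 0.05 (SE 0.33, interval -0.70 to 0.81, adjusted p = 0.965). Its sign changed under other scalings, with -0.07 for library totals alone and -0.06 for RPKM with a pseudocount of 0.1. Bag1 and Bag2 had log2 fold changes of 0.25 (SE 0.15) and -0.11 (SE 0.24). In the mitochondrial chaperonin, Hspd1 was at 88.0 to 102 CPM in OgaVav-Cre and 63.8 to 102 in wildtype (log2 fold change 0.26, SE 0.19), and Hspe1 at 32.3 to 39.6 and 31.3 to 43.1 CPM (0.02, SE 0.16). Hspb1, the inducible small heat shock protein, was read 0, 5 and 0 times in OgaVav-Cre against 1, 4 and 2 times in wildtype. These counts are at or near a floor of 3 reads (0.111 to 0.155 CPM), so no fold is given. Hspb11, which belongs to the intraflagellar transport machinery in spite of its symbol, was at 2.92 to 4.35 and 2.67 to 2.92 CPM (log2 fold change 0.43, SE 0.27, adjusted p = 0.577).

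The TRiC/CCT subunits had broadly similar profiles over the libraries, which was not put to a test. This was not particular to them, since Hsp90ab1 had the same order of libraries within each genotype as their sum. All 7 subunits of the set (Tcp1, Cct2, Cct3, Cct4, Cct5, Cct7 and Cct8) had positive fold changes, with a median of 0.30 and a range from 0.09 for Cct4 to 0.37 for Cct7. None was called, with adjusted p from 0.519 to 0.843, and their genotypes overlapped in every case. Summed over the 7 genes the level was 1562, 1786 and 1461 CPM in OgaVav-Cre and 1586, 1273 and 1110 in wildtype. Wildtype replicate 1 was again within the OgaVav-Cre range and was the highest wildtype library for 7 of 7 subunits (47.4% of loci of at least 100 CPM). Without this library, singled out for its high values, the median was 0.45 and the smallest adjusted p was 0.225. Then 6 of 7 subunits were higher without overlap (17.3% of loci). For Cct4 library totals alone turned the log2 fold change to -0.02.

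Some values rest on sequence that is not unique. More than 10% of the 50-base stretches of the transcript had an exact copy elsewhere in mm9 for 13 of the 39 genes, and 16 genes had none. The share was 79.1% for Dnajb6, 73.1% for Hsp90aa1, 63.6% for Ptges3, 63.0% for Hspb1, 58.5% for Hspd1 and 46.5% for Hspe1. How reads with several places were counted is not given in the sources used here, so the levels of these genes are uncertain. Hsf2 (2.33%), Dnajb4, Fkbp5 and Dnaja2 (0% each) and Hspa4l (0.753%) were nearly free of such copies. For Hspa9, the remaining gene whose genotypes did not overlap, the share was 8.87%. The spans of 23 genes overlapped another locus, 15 of them on the opposite strand, and whether strand was used in counting is not given in the sources used here either. A second locus named Hspa4l lies within the Hspa4l span on the opposite strand. It had 60, 135 and 72 reads in OgaVav-Cre against 109, 64 and 95 in wildtype. Dnaja2 and Dnajb4 were among the 16 genes whose span met no other locus.

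**Figure D5:**
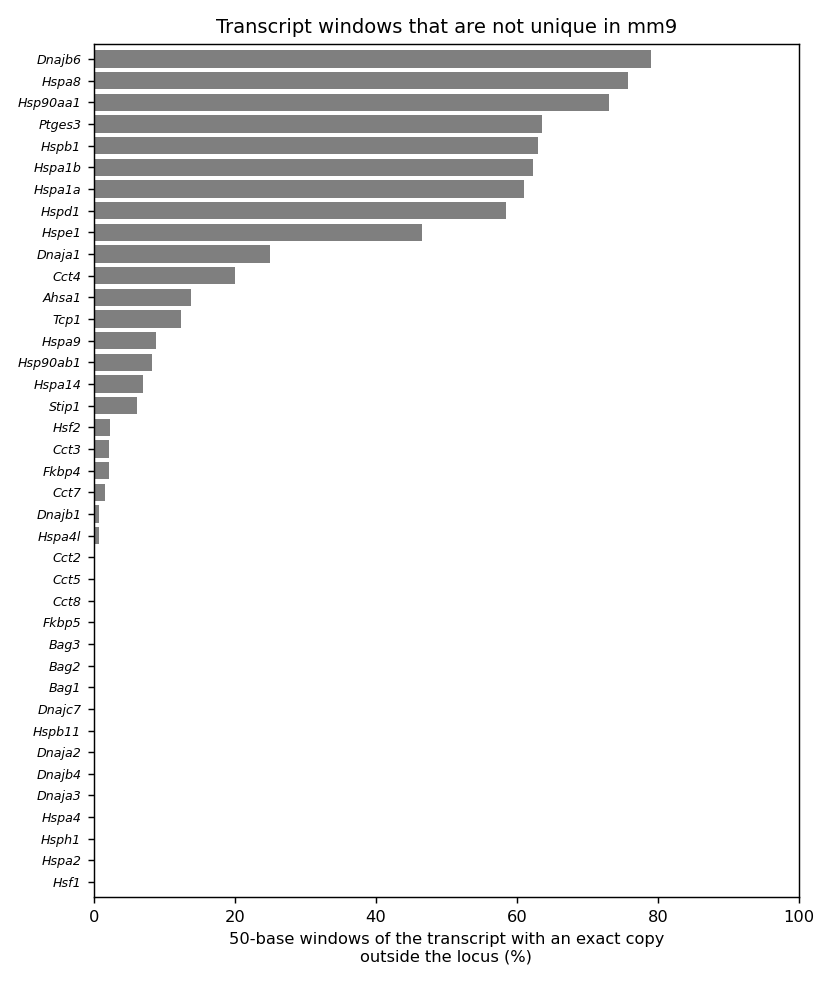
Share of the 50-base windows of each transcript, in percent, that have an exact copy outside the gene's own locus in mm9, with 1 bar per gene. The bars for Dnajb6, Hspa8 and Hsp90aa1 pass 70%, and 16 genes are at 0.

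Chaperone genes outside the set were not called either. Of 53 other chaperones and co-chaperones 47 were tested, 23 with positive (50.5% of all loci) and 24 with negative fold changes and a median of -0.02. None was called, and 4 higher and 2 lower genes were at an unadjusted p below 0.05 in edgeR (4.38 and 6.27% of all loci). The 3 with the smallest p were Dnaja4, a J-domain protein (5.06, 4.23 and 4.31 CPM in OgaVav-Cre, 7.73, 11.4 and 7.83 in wildtype, log2 fold change -0.99, SE 0.24, adjusted p = 0.384), Cdc37l1, related to the kinase co-chaperone CDC37 (-0.43, SE 0.13, adjusted p = 0.412), and Hspbp1, an exchange factor for HSP70 (0.47, SE 0.15, adjusted p = 0.412). Of 20 chaperones and folding enzymes of the endoplasmic reticulum 19 had positive fold changes (50.5% of all loci), with a median of 0.30. None was called, and Serpinh1, a collagen chaperone (0.85, SE 0.24), Sil1, an exchange factor (0.61, SE 0.22), and Fkbp2 (0.69, SE 0.29) were higher at an unadjusted p below 0.05 in edgeR (4.38% of all loci, smallest adjusted p = 0.412). Their summed level was 6387, 4892 and 4176 CPM in OgaVav-Cre and 4784, 4139 and 3503 in wildtype, highest in OgaVav-Cre replicate 1, where the sum of the plasma cell markers was also highest (111632 CPM). The part of plasma cells in it was not tested. Of 15 immediate early genes, which respond to handling and dissociation, 14 were tested, 8 positive and 6 negative with a median of 0.06. Ier2 (0.43, SE 0.17, adjusted p = 0.446) alone was at an unadjusted p below 0.05 in edgeR (10.6% of all loci). The 3 lists of cell type markers also had 0 calls, with 5 positive and 5 negative fold changes among 10 LSK markers, 8 and 5 among 13 lineage markers and 9 and 0 among 9 plasma cell markers.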

How the data were processed

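Single-end reads of 50 bp from 6 poly(A) libraries were aligned to mm9 and summarized per locus with Genomatix by the authors (CASAVA 1.8.2 is named in the submitters' processing notes). The aligner's version and the treatment of reads with several places are not given in the sources used here. The deposited table holds raw read counts per locus in each library (all whole numbers) and RPKM that the authors computed from these counts, the locus length and 1 divisor per library (1.12 to 1.19 times the sum of the listed counts). The authors' comparison columns (p-value, adjusted p-value and log2 fold change from DESeq2) and the normalized expression columns were not used. Igkc is listed under its Ensembl number and was matched by it.

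Counts of all 53445 loci were fitted in R 4.3.3 with edgeR 4.0.16 (filterByExpr, TMM, glmQLFit, glmQLFTest, legacy = TRUE) with genotype as the only term. Adjustment was by Benjamini-Hochberg over the 22032 loci tested. The study's own test, DESeq2 1.42.0 with its Wald test, and limma 3.58.1 (voom, and RPKM with pseudocounts of 0.1 and 1) were alternatives, beside other scalings and filters, the replicate number as a block and each library left out. CPM are scaled by TMM. SE is the log2 fold change divided by the square root of F. The test was tested on simulated data, drawn without shifts of whole libraries, and no result given here rests on them. With 3 against 3 mice, edgeR's p-values set the genotype difference against the spread between these mice, moderated over all loci tested. A floor of 3 reads corresponds to 0.111 to 0.155 CPM.

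The genes and lists were chosen with earlier results of these data known. Values in every library are given for genes whose genotypes do not overlap, those at an unadjusted p below 0.05, 7 heat-inducible genes and Hsf1. From each other chaperone or response list up to 3 genes of smallest p are named with their fold change. Every 50-base window of each member's longest annotated transcript was searched in mm9. Python 3.11.15, pandas 2.3.3 and matplotlib 3.10.9 made tables and figures.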

Additional observations from a re-analysis of the deposited data

How the results depend on the processing

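In 16 alternative fits 0 of the chaperone genes passed both cutoffs, and the lowest adjusted p was 0.211. Of 592 fold changes 31 had the other sign, and 27 of 37 genes kept their direction throughout. Library totals alone gave -0.0872 for Dnajb6, -0.0783 for Dnajc7, -0.0750 for Bag3, -0.0891 for Hspe1 and -0.0231 for Cct4, with 0 higher genes at an unadjusted p below 0.05. RPKM with a pseudocount of 0.1 gave -0.0216, -0.0524, -0.0649 and -0.0357 for the first 4, and with a pseudocount of 1 gave -0.0168, -0.0489, -0.0423 and -0.0343, each with 1 higher gene, and limma-voom gave -0.0105 for Bag3. The cause was not tested. Over all loci 117 were called by DESeq2's Wald test, 21 without a filter, 4 with at least 10 reads in every library and 4 for RPKM with a pseudocount of 1.

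Leaving out each library gave 0 to 17 higher and 2 to 4 lower genes at an unadjusted p below 0.05 (2.19 to 7.4 and 3.2 to 8.09% of all loci), 6 to 22 genes without overlap (23.3 to 35.4% of all loci) and 3 to 9 loci called over the whole table. Fold changes of the genes that turned sign ranged from -0.294 to 0.217 (Hspa2), -0.260 to 0.103 (Hspa8), -0.194 to 0.0363 (Dnaja1), -0.138 to 0.335 (Bag3), -0.291 to 0.0855 (Bag2), -0.138 to 0.211 (Dnajc7), -0.0623 to 0.131 (Dnajb6), -0.0609 to 0.173 (Hspe1), -0.0251 to 0.476 (Hsp90aa1) and -0.00557 to 0.166 (Cct4). With the replicate number as a block 3 higher and 2 lower genes were at an unadjusted p below 0.05 (5.75 and 6.61% of all loci). Deviations of same-numbered libraries correlated at -0.0814, 0.260 and 0.316. Differently numbered libraries were not compared in this way, so these values cannot settle whether the numbers pair the mice.

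Genes with few reads (Hspa1a, Hspb1, Hspa1b) and those with copies elsewhere in the genome are limited by depth and by unique sequence.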

Other observations

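Outside the chaperones, the 5 loci of at least 10 CPM whose log2 CPM followed Hspa1b most closely over the 6 libraries were Vps29 (Pearson r = 0.989), Ankrd49 (0.985), Tti1 (0.982), Ndufaf4 (0.980) and Thoc1 (0.974), of 11841 loci compared. This is a description chosen by its size, and the points share the same 6 libraries. Like Hspa1b, these loci were higher in wildtype replicates 1 and 2 than in the other libraries. Vps29 was at 51.2 and 55.2 CPM there and at 37.5 to 41.8 CPM in the others.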
